A study of Mus musculus with 2 samples.

Results

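This section describes the mRNA of 9 enzymes and cofactors that write, copy or remove DNA methylation in mouse embryonic stem cells (mESCs): the DNA methyltransferases *Dnmt1*, *Dnmt3a* and *Dnmt3b*, their cofactors *Dnmt3l* and *Uhrf1*, the dioxygenases *Tet1*, *Tet2* and *Tet3*, and the glycosylase *Tdg*. They were chosen by name, and all 9 are among the 31053 genes of both count matrices. The matrices hold counts of unique molecular identifiers (UMIs), which tag each captured mRNA near its 3′ end, and came from 1 droplet library of parental E14 mESCs (WT) and 1 of E14 mESCs labelled Smad1/5 double knockout (S1/5 dKO), in which CRISPR-Cas9 was used against *Smad1* and *Smad5*, the genes of the main BMP signal transducers of these cells. Both cultures were feeder-free on gelatin, in medium with 15% fetal bovine serum and 1000 U/ml LIF, and no other treatment separated them. The labels do not say which knockout line was used or whether it was 1 clone. The limits on cells were 1000 detected genes as a minimum and 5% of UMIs from mitochondrial genes as a maximum, which gave 2236 WT cells and 2910 cells labelled S1/5 dKO.

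DNA methylation in mammals is set on cytosines that precede guanine by DNMT3A and DNMT3B, and DNMT3L, which has no catalytic activity, assists them in germ cells and early embryonic cells. After replication the new strand is unmethylated, and UHRF1 binds such sites and brings in DNMT1, which copies the pattern. TET enzymes oxidize the methyl group, and TDG cuts out the most oxidized forms so that base excision repair restores plain cytosine. Imprinted genes such as *Mest* depend on this system, because the methylation of 1 parental allele is kept through each division.

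The promoters of the 9 genes are shown first, because the sections on the cell cycle and on the knockout label concern transcript levels. RefSeq promoter windows on GRCm38.p6, from 250 bases before to 50 bases after each annotated start, were found for 9 of 9 genes. They were searched on both strands for the E2F motif, spelled TTTCCCGC, TTTCGCGC, TTTGCCGC or TTTGGCGC, and for GGCGCC, a sequence that SMAD1/5 complexes can bind. A TTTGGCGC followed by C overlaps GGCGCC. The E2F motif was found in *Dnmt1* and *Uhrf1* and in none of the windows of the other 7 genes, against 2.60% of all 27025 genes with windows. The 3 matches lie 219 bases before and at base 34 after 1 of the 3 *Dnmt1* starts and 185 bases before 1 of the 2 *Uhrf1* starts. They read as follows, in the direction of the gene and with the match in capitals.
*Uhrf1*, chr17:56304117-56304146, plus strand: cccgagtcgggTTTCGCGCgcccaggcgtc
*Dnmt1*, chr9:20952824-20952853, minus strand: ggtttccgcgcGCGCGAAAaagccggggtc
*Dnmt1*, chr9:20952574-20952603, minus strand: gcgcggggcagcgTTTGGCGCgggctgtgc
GGCGCC was found in *Dnmt1*, *Dnmt3a*, *Dnmt3b* and *Tdg*, against 13.4% of all genes. *Dnmt3a* held it in 3 of 3 windows and *Dnmt3b* held it at 2 places in its only window, 70 and 16 bases before the start. The 2 *Dnmt3b* matches and the *Tdg* match, 67 bases before its start, are printed as examples of the motif in a de novo methyltransferase and in a demethylation gene.
*Dnmt3b*, chr2:153649368-153649397, plus strand: gctgcggcgggGGCGCCccccgggcggggg
*Dnmt3b*, chr2:153649422-153649451, plus strand: acaagggcagcGGCGCCgccccctccccac
*Tdg*, chr10:82629760-82629789, plus strand: gcggcggtcggGGCGCCccgaaaaggacac
These matches are descriptions of letters in the windows. The windows that hold them had 57.0% to 82.3% G and C, against a median of 52.7% over all 32851 windows. Binding was not measured in these libraries.

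The libraries were deep, with 95965242 UMIs in the WT cells (median 38662 per cell) and 109020533 in the cells labelled S1/5 dKO (median 34548.5), and they shared 0 cell barcodes. The summed level of 10 pluripotency markers was 8149 and 8399 CPM (a gene's share of all UMIs of the cells, per 1000000), that of 6 endoderm markers 2.58 and 2.46 CPM, and that of 6 fibroblast markers 0.802 and 1.05 CPM, with 3 and 2 of the fibroblast markers at 0. The 8 markers of the 2-cell-like state, 7 of them in the files, summed to 1.84 CPM in WT against 4.38 CPM, among them *Tcstv3* at 0.146 against 1.62 CPM, and their part in the results was not tested. As a check of the labels, *Smad1* had 13.4 CPM in WT against 9.17 CPM, whereas *Smad5* had 6.05 against 9.09 CPM and was thus higher in the library labelled S1/5 dKO. A 3′ tag does not read the CRISPR edit, so these levels do not check it. *Id1*, a target of BMP-SMAD signaling, was 323 and 161 CPM. Each condition had 1 library, so differences between conditions were not tested, genotype and library cannot be told apart, and the 95% intervals below cover counting error only.

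The levels of the 9 genes differed little between the libraries, and so did those of most genes. With a log2 ratio of at least 0.32 in size as the threshold for counting a gene as different, 0 of the 9 passed it in either direction, against 9.83% of all 11349 genes with at least 200 UMIs. The share was 5.01% among genes with at least 1000 UMIs, a minimum that all but *Tet3* met. The log2 ratios of the 11349 genes had a median size of 0.09. With so few members, 0 of 9 does not set them apart from all genes. The largest ratios were those of *Dnmt3a*, *Tet2* and *Dnmt3l*. All values are summed UMIs over the total UMIs of the cells, and since 3′ capture differs from gene to gene, levels are compared between libraries and not between genes.

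*Dnmt1*, the maintenance methyltransferase, had 113 CPM in WT (95% interval 111 to 116, 10879 UMIs) against 117 CPM in cells labelled S1/5 dKO (115 to 119, 12791 UMIs). Its log2 ratio was 0.05 (0.01 to 0.09). *Uhrf1*, which brings DNMT1 to newly replicated DNA, was 75.8 and 78.4 CPM, with a log2 ratio of 0.05 (0.00 to 0.09). Both genes of maintenance were thus 1.03-fold WT.

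*Dnmt3a*, a de novo methyltransferase, had 19.8 CPM in WT (18.9 to 20.7) against 23.0 CPM in cells labelled S1/5 dKO (22.1 to 23.9). The counting intervals did not overlap, and the log2 ratio of 0.22 (0.13 to 0.30) was the largest of the 9 in size. *Dnmt3b*, the other de novo enzyme, was 28.5 and 29.4 CPM, a log2 ratio of 0.05 (−0.03 to 0.12). *Dnmt3l*, the inactive cofactor, had 93.9 CPM in WT (91.9 to 95.8) against 88.6 CPM (86.8 to 90.3). With a log2 ratio of −0.08 (−0.13 to −0.04) it was the only one of the 9 that was lower in cells labelled S1/5 dKO. The paper that reported these libraries also used quantitative RT-PCR. There, *Dnmt3b* and *Dnmt3l* were slightly higher in both knockout lines, and *Dnmt1*, *Dnmt3a* and *Uhrf1* did not change. *Dnmt3c*, a rodent gene next to *Dnmt3b* on chromosome 2 with a similar sequence, had 1 UMI in WT and 0 in the other library (95% upper limit 0.0338 CPM). Reads that match both genes equally could be lost or split in the count of *Dnmt3b*.

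*Tet1*, which oxidizes the methyl group, was 168 and 169 CPM, and its log2 ratio of 0.01 (−0.02 to 0.04) had the narrowest interval of the 9. *Tet2* had 42.7 CPM in WT (41.4 to 44.1) against 47.3 CPM in cells labelled S1/5 dKO (46.0 to 48.6), which gave 0.15 (0.09 to 0.20) on the log2 scale. *Tet3*, best known in the egg and zygote, was 2.22 and 2.29 CPM from 213 and 250 UMIs, and its interval from −0.22 to 0.32 was the widest. *Tdg*, the glycosylase, was 27.0 and 28.7 CPM, a log2 ratio of 0.09 (0.01 to 0.16). The middle 90% of all genes with at least 200 UMIs lay between −0.34 and 0.30, and the 9 ratios all lay inside it.

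**Figure D1:**
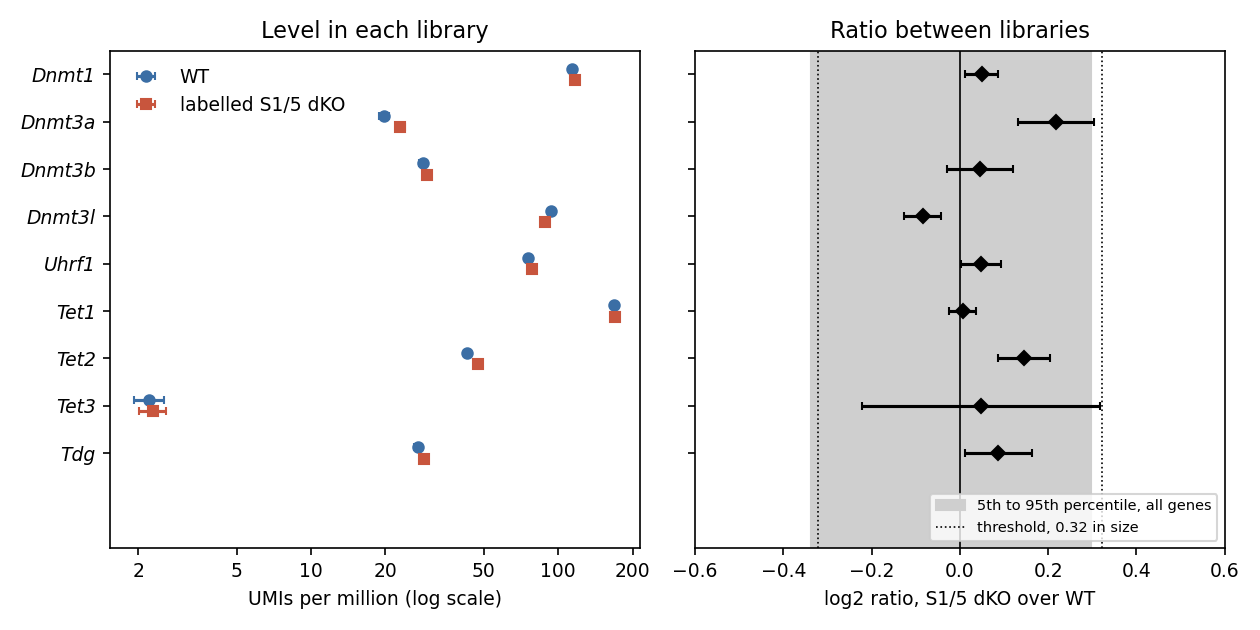
Left, CPM of each gene in the 1 WT library (circles) and the 1 library labelled S1/5 dKO (squares), on a log axis. Right, log2 ratio between them, with the 5th to 95th percentile of all genes (−0.34 to 0.30) in gray and the threshold of 0.32 as dotted lines; bars are 95% counting intervals. All 9 ratios sit inside the gray band, *Dnmt3a* farthest to the right at 0.22.

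Within each phase of the cell cycle the ratios stayed small as well. *Dnmt3a* was higher in cells labelled S1/5 dKO in G1, S and G2/M cells alike, by 0.21, 0.13 and 0.28 on the log2 scale. The interval left out 0 in G2/M (0.16 to 0.41) and reached below 0 in G1 and S. *Dnmt3l* was lower in all 3 phases, with log2 ratios of −0.10 in G1, −0.14 in S and −0.05 in G2/M, where the interval (−0.11 to 0.00) included 0. *Tet2* was 0.04 in G1, 0.17 in S and 0.15 in G2/M.

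The genes around the 9 were taken from a list of 47 readers, partners, methyl donor enzymes and repair factors, of which 45 had at least 200 UMIs. Of these, 2 passed the threshold upward and 2 downward in the library labelled S1/5 dKO. This share of 8.89% was close to the 9.83% of all genes with at least 200 UMIs. The list median was −0.02 against −0.01 over all genes. *Dppa3*, which keeps UHRF1 away from chromatin in oocytes and early embryos, had 2.31 CPM in WT against 4.49 CPM in cells labelled S1/5 dKO (log2 ratio 0.96, 0.73 to 1.19). *Kdm1b*, a histone demethylase needed for maternal imprints in oocytes, was 1.89 and 2.57 CPM (0.45, interval 0.17 to 0.72). *Zbtb38*, a reader of methylated DNA, was 13.8 and 10.5 CPM (−0.40, −0.52 to −0.29), and *Gadd45a*, a stress protein linked to active demethylation, was 20.4 and 15.3 CPM (−0.42, −0.51 to −0.32). The methyl donor enzymes lay between −0.13 and 0.27, and 0 of 7 passed the threshold. The partners of maintenance had 7 of 8 genes within it, among them *Hells* (321 and 356 CPM), a chromatin remodeler, and *Pclaf* (171 and 201 CPM), a PCNA-binding protein.

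After each cell was thinned to 10000 UMIs, which left out 43 WT cells and 67 others, a *Tet1* UMI was found in 76.3% of WT cells (exact binomial interval 74.5 to 78.1) and in 75.6% of cells labelled S1/5 dKO (74.0 to 77.2). Without thinning the shares were 96.3% and 95.5%. *Dnmt1* was found in 65.1% and 63.6%, *Dnmt3l* in 53.0% and 51.4%, and *Uhrf1* in 51.4% and 51.3%. The shares of *Tet2* were 32.4% and 33.3%, those of *Tdg* 23.9% and 25.6%, and those of *Dnmt3b* 23.7% and 24.1%. *Dnmt3a* was found in 17.4% and 19.6% of cells, with intervals of 15.9 to 19.1 and 18.2 to 21.1 that overlapped, and *Tet3* in 2.33% and 2.71%. Barcodes with 10 to 100 UMIs, which hold free RNA in place of a cell, contained the same genes. In WT they held *Dnmt1* at 82.2 CPM and *Tet1* at 124 CPM, against 113 and 168 CPM in cells. *Uhrf1* was higher there than in WT cells, 90.7 (77.2 to 106) against 75.8 CPM. In the library labelled S1/5 dKO it was 76.6 CPM (64.8 to 89.9) in free RNA against 78.4 in cells. *Mest* was 14.2 CPM (9.17 to 20.9) in the WT free RNA against 11.3 in cells. In the other library *Mest* was 64.9 CPM there against 93.6 in cells. The culture holds no cell type known to lack these genes, so the part of free RNA in the shares was not tested.

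The UMIs were spread over the cells somewhat more unevenly than random draws around 1 mean would give, for which variance over mean is 1. *Tet1* had the highest ratio in both libraries, 1.36 and 1.38, followed by *Dnmt3l* at 1.33 and 1.31. Among genes of similar level the median was 1.09 for *Tet1* and 1.07 and 1.06 for *Dnmt3l*. *Tet1* lay below the 95th percentile of such genes in both libraries (1.39 and 1.49). *Dnmt3l* lay just above the 95th percentile of such genes in both libraries (1.32 and 1.30), and *Dnmt3a* (1.24) and *Dnmt3b* (1.21) lay above theirs (1.16 and 1.17) in the library labelled S1/5 dKO. *Tet3*, at 1.02 and 0.973, and *Tdg*, at 1.06 in both, were close to 1. *Mest* in WT stood far above its like, at 2.00 against a 95th percentile of 1.11, and was 1.26 in cells labelled S1/5 dKO.

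Phases of the cell cycle were scored from the S and G2/M gene lists of Seurat without *Uhrf1* and 4 of its functional neighbors, which left 38 S and 54 G2/M genes. In WT, 503 cells were called G1, 810 S and 880 G2/M, and in the other library 592, 974 and 1277. Phases are ranges of a score, and 18.2% and 17.4% of cells lay within 0.02 of a cut. G2/M cells held more UMIs than G1 cells, with medians of 46349 against 37092 in WT, so CPM gives a share of the mRNA and not the amount per cell. Per cell, *Dnmt1* had 4.06 UMIs in G1 and 5.81 in G2/M in WT.

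*Uhrf1* was highest in S phase. In G1, S and G2/M cells of WT it was 67.1 CPM (63.6 to 70.8), 92.2 CPM (89.0 to 95.6) and 67.9 CPM (65.5 to 70.4), and in cells labelled S1/5 dKO 70.3, 98.1 and 68.8 CPM. S stood apart from the other phases in both libraries, and G1 and G2/M overlapped. The log2 ratio of S over G1 was 0.46 (0.37 to 0.55) in WT and 0.48 (0.39 to 0.57) in the other library, and that of G2/M over S was −0.44 and −0.51.

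*Tet2* was the other gene past the threshold in S over G1 in both libraries. It was 35.2, 46.0 and 43.9 CPM in WT G1, S and G2/M cells, and 36.2, 51.8 and 48.7 CPM in the other library. Its S over G1 ratio was 0.38 (0.25 to 0.51) and 0.52 (0.39 to 0.64). In WT, 3 of the 8 genes with enough UMIs passed the threshold in S over G1 (*Dnmt3a* at 0.35, *Uhrf1* and *Tet2*), against 5.35% of all genes tested that were higher in S. In the library labelled S1/5 dKO, 3 of 8 did so (*Uhrf1*, *Tet2* and *Tdg* at 0.34), against 10.2%. *Tet3* had too few UMIs to be counted.

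In G2/M over G1 several of the genes sat close to the threshold. In WT, 0 of 8 passed it against 12% of all genes that were higher in G2/M, with *Tet2* just short at 0.32. In cells labelled S1/5 dKO, 3 of 8 passed it against 18%, namely *Dnmt1* at 0.35, *Tdg* at 0.38 and *Tet2* at 0.43, and *Tet1* was just short at 0.32.

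*Dnmt1* and *Tet1* were lowest in G1 and similar in S and G2/M. *Dnmt1* was 101, 116 and 117 CPM in WT and 97.1, 120 and 123 CPM in the other library, and *Tet1* was 147, 177 and 173 CPM in WT and 143, 171 and 178 CPM in the other library. *Tdg* had the same order of G1 below the others, with 24.0, 28.0 and 27.7 CPM in WT. *Dnmt3b* was 26.0, 28.0 and 30.1 CPM in WT, where the G1 and S intervals overlapped.

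*Dnmt3l* went the other way. It was lowest in S, with 93.2, 88.6 and 98.3 CPM in G1, S and G2/M of WT and 86.7, 80.2 and 94.6 CPM in the other library. Its ratio of S over G1 was −0.07 (−0.16 to 0.01) and −0.11 (−0.20 to −0.02), and that of G2/M over S was 0.15 (0.08 to 0.22) and 0.24 (0.17 to 0.31). *Mest* itself, the imprinted gene followed below, was 13.1, 10.8 and 10.9 CPM in WT and 88.7, 96.8 and 93.6 CPM in cells labelled S1/5 dKO.

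**Figure D2:**
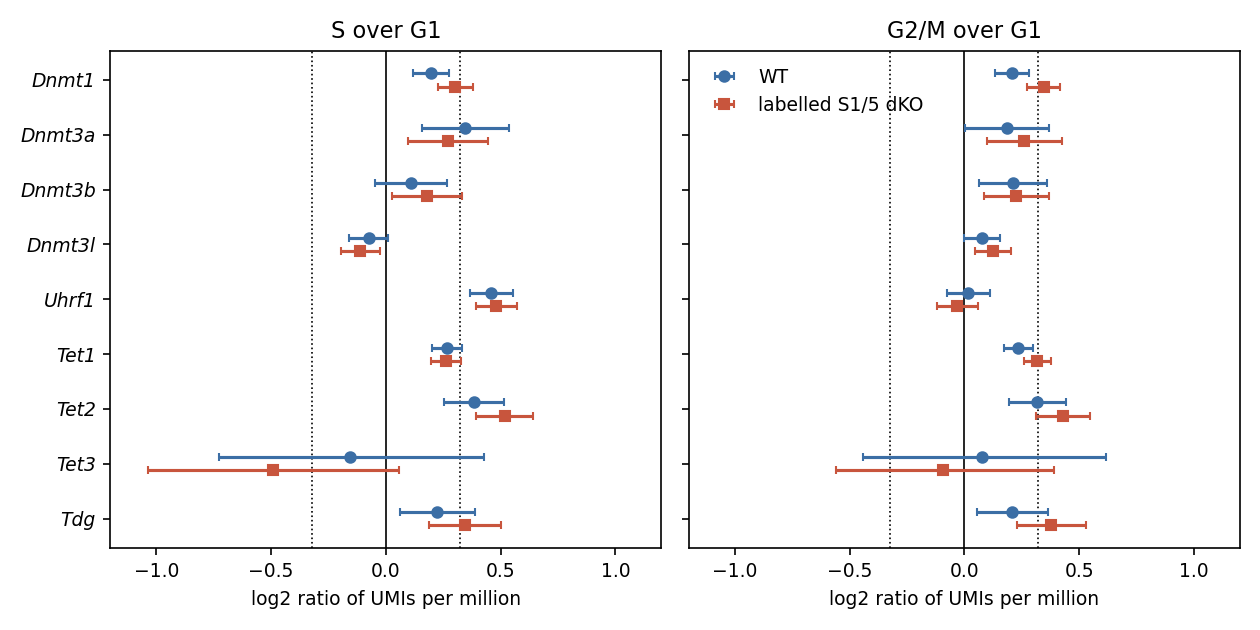
Log2 ratio of CPM in S (left) and G2/M cells (right) over G1 cells of the same library, for WT (circles) and cells labelled S1/5 dKO (squares); bars are 95% counting intervals and dotted lines mark the threshold of 0.32. *Uhrf1* is high in S only (0.46 and 0.48), and *Dnmt3l* is below 0 in S.

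The phases were then replaced by 8 bins along the angle of the S and G2/M scores, with the edges set on both libraries together, which follow the cycle without fixed cuts. Bins 7, 8 and 1 had the high S scores (means of 0.0575, 0.109 and 0.0862 in WT), bins 2 and 3 the highest G2/M scores (0.166 and 0.161), bin 4 a low S and a positive G2/M score, and bins 5 and 6 a negative mean of both scores. The peaks of the 9 genes fell in different bins, and 5 of them peaked in the same bin in both libraries.

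*Uhrf1* peaked in bin 8 and was lowest in bin 4. In WT it was 98.0 CPM in bin 8 (92.3 to 104) and 56.0 in bin 4 (52.1 to 60.1), 1.75-fold, and in the other library 104 and 59.6 CPM, 1.74-fold. *Tet1* and *Tet2* peaked in bin 1, which follows bin 8 on the circle, at 192 and 50.4 CPM in WT, and *Dnmt1* peaked in bin 2 at 133 CPM in WT and 135 in the other library. Bins 1 and 2 of *Dnmt1* differed by less than their intervals (133 and 133 CPM in WT, 135 and 135 in the other library).

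*Dnmt3l* peaked in bin 4, where *Uhrf1* was lowest, at 108 CPM in WT (103 to 114) against 103 CPM in cells labelled S1/5 dKO (98.2 to 109). Its lowest bins were 6 in WT (84.7 CPM) and 8 in the other library (78.0 CPM). The range from lowest to highest bin was 1.28-fold and 1.32-fold for *Dnmt3l*, 1.39-fold and 1.40-fold for *Dnmt1*, and 1.32-fold and 1.37-fold for *Tet1*.

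*Tet2* spanned 1.42-fold in WT and 1.84-fold in the library labelled S1/5 dKO, where bin 1 was 63.8 CPM (59.9 to 68.0) against 50.4 in WT (46.3 to 54.8). The intervals of that bin did not overlap between the libraries, and those of the other 7 bins did. *Dnmt3a* peaked in bin 8 in WT (24.3 CPM) and bin 1 in the other library (27.2 CPM), *Dnmt3b* in bins 3 and 1, and *Tdg* in bins 1 and 2, with overlapping intervals around the peaks. The bins of *Tet3* held 1.19 to 2.78 CPM, and the intervals of its highest and lowest bin overlapped in both libraries.

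**Figure D3:**
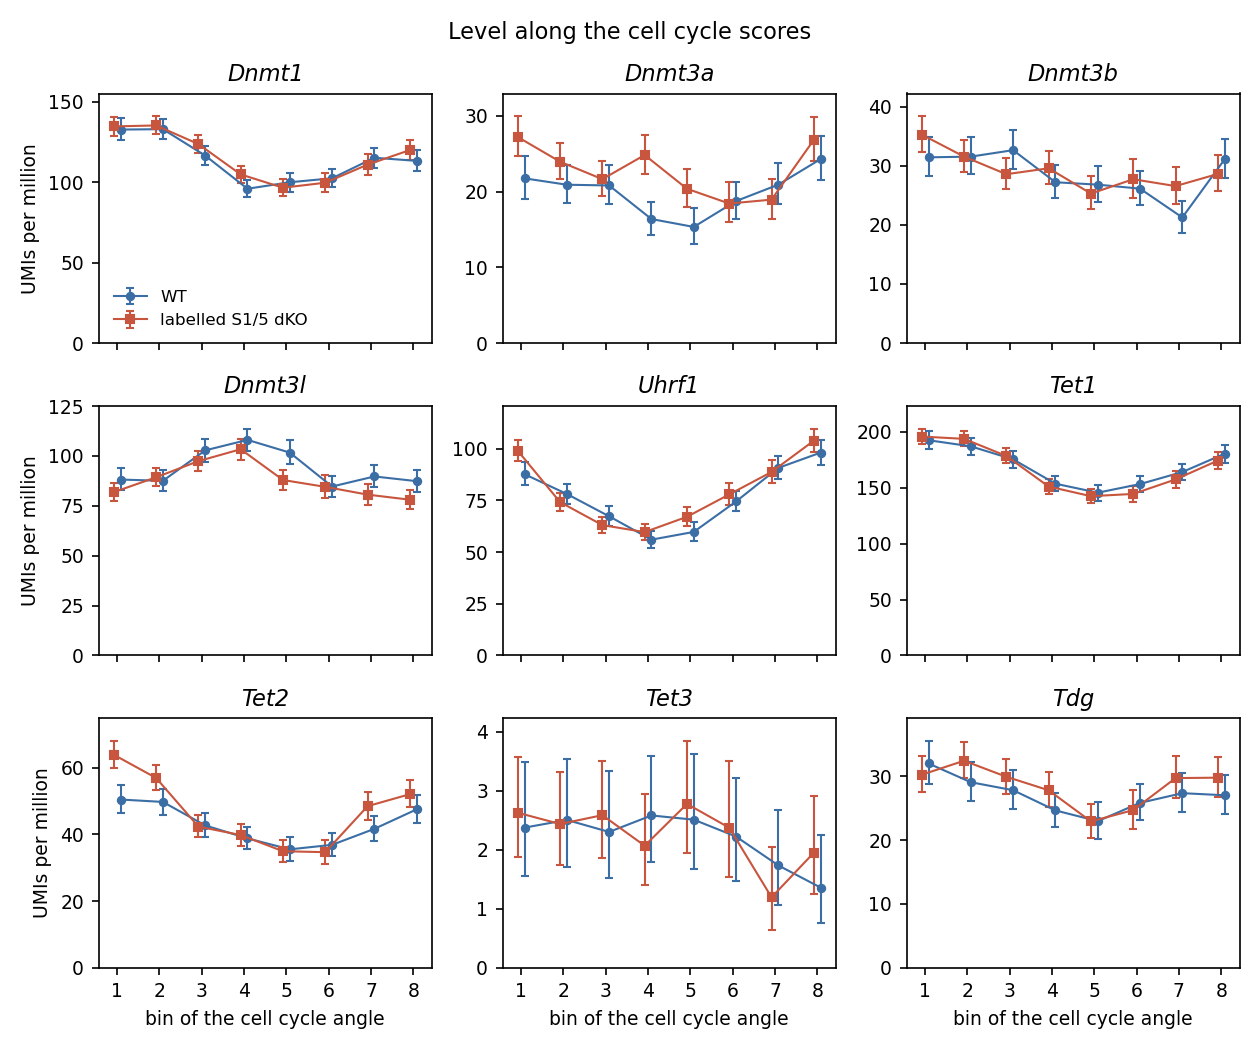
CPM of the 9 genes in 8 bins along the angle of the S and G2/M scores, for WT (circles) and cells labelled S1/5 dKO (squares); bars are 95% counting intervals and each vertical axis starts at 0. *Uhrf1* runs from 98.0 in bin 8 to 56.0 in bin 4 in WT, and *Dnmt3l* has its maximum in bin 4.

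*Mest*, an imprinted gene expressed from the paternal allele, had 11.3 CPM in WT against 93.6 CPM in cells labelled S1/5 dKO (log2 ratio 3.05). The question here was whether the 9 genes differ between cells with and without a detected *Mest* UMI. At 10000 UMIs per cell, 162 of 2193 WT cells had a *Mest* UMI (7.39%, 6.33 to 8.56) and 1611 of 2843 cells labelled S1/5 dKO did (56.7%, 54.8 to 58.5). Cells with and without a UMI had similar depths, with medians of 39472.5 and 38963 UMIs in WT and 34785 and 35036 in the other library. The share was 8.35%, 7.41% and 6.82% in G1, S and G2/M of WT, with overlapping intervals, and 55.7%, 57.5% and 56.5% in the other library. Without thinning, the share with a *Mest* UMI was 11.2% in WT and 87.6% in the other library. Many cells of the latter that had no *Mest* UMI at 10000 UMIs thus did hold *Mest* mRNA. In that library the comparison is mainly between higher and lower *Mest*, so ratios near 0 do not test presence against absence.

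In the library labelled S1/5 dKO, over cells of all phases, 0 of 9 passed the threshold, against 1.82% of all genes. *Dnmt3b* was 30.8 CPM in cells with a *Mest* UMI and 27.6 in cells without (log2 ratio 0.15, 0.05 to 0.26), *Uhrf1* was 81.5 and 74.2 CPM (0.14, 0.07 to 0.20), and *Dnmt3a* was 23.9 and 21.9 CPM (0.13, 0.01 to 0.24). These 3 were the ones whose intervals left out 0. *Dnmt1* (0.04), *Dnmt3l* (−0.02), *Tet1* (−0.01), *Tet2* (0.00), *Tet3* (0.07) and *Tdg* (0.10) had intervals that included it. The middle range of all genes, taken as for the ratios between the libraries, was −0.15 to 0.21 in this contrast. All 9 ratios lay inside that range, so those of *Dnmt3b*, *Uhrf1* and *Dnmt3a* do not set these genes apart from all genes.

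In WT, 1 of 9 passed the threshold, against 10.8% of all genes. It was *Tet3* at 0.51, which rests on 22 UMIs in the cells with *Mest* and has an interval from −0.20 to 1.15. *Dnmt1* was 105 CPM in cells with and 114 in cells without a *Mest* UMI (−0.12, −0.23 to −0.02), the only interval of the 9 that left out 0 in WT. The middle range of all genes was −0.36 to 0.30 in WT. The ratio of *Dnmt1* lay inside that range, as did those of the other genes except *Tet3*. *Dnmt3a* was −0.18 (−0.45 to 0.08) in WT and had the opposite sign in the other library. *Uhrf1* was 80.8 and 75.5 CPM (0.10, −0.03 to 0.22). Within a phase some ratios were larger. In the 42 WT G1 cells with *Mest* against 461 without, *Uhrf1* was 0.37 (0.11 to 0.63) and *Tet2* 0.42 (0.05 to 0.76), whereas *Tet2* was −0.28 (−0.49 to −0.06) in G1 cells labelled S1/5 dKO. In WT G2/M cells, *Dnmt3a* was −0.47 (−0.94 to −0.04) from 45 UMIs in the cells with *Mest*. *Uhrf1* was 0.04 (−0.11 to 0.19) in G1 cells labelled S1/5 dKO. Some signs differed between phases of that library. *Dnmt3l* was 0.17 (0.03 to 0.30) in G1 and −0.12 (−0.20 to −0.04) in G2/M. *Tet1* was −0.18 (−0.28 to −0.07) in G1 and 0.11 (0.03 to 0.19) in S.

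Cells labelled S1/5 dKO could also be divided by the number of *Mest* UMIs, with 1232 cells at 0, 938 at 1, 413 at 2 and 260 at 3 or more. *Uhrf1* was 74.2, 80.6, 78.8 and 89.4 CPM in these classes, and the interval of the last (83.5 to 95.5) did not overlap that of the first (71.7 to 76.7). *Dnmt3a* was 21.9, 23.2, 24.5 and 25.4 CPM, with neighboring classes overlapping. *Dnmt3b* was 27.6 CPM at 0 and between 30.5 and 31.0 above it. *Dnmt3l* was 89.1, 84.2, 92.2 and 95.9 CPM, *Dnmt1* 116, 120, 120 and 112 CPM, and *Tet1* 170, 172, 166 and 161 CPM, none of them in a steady order with the intervals apart.

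**Figure D4:**
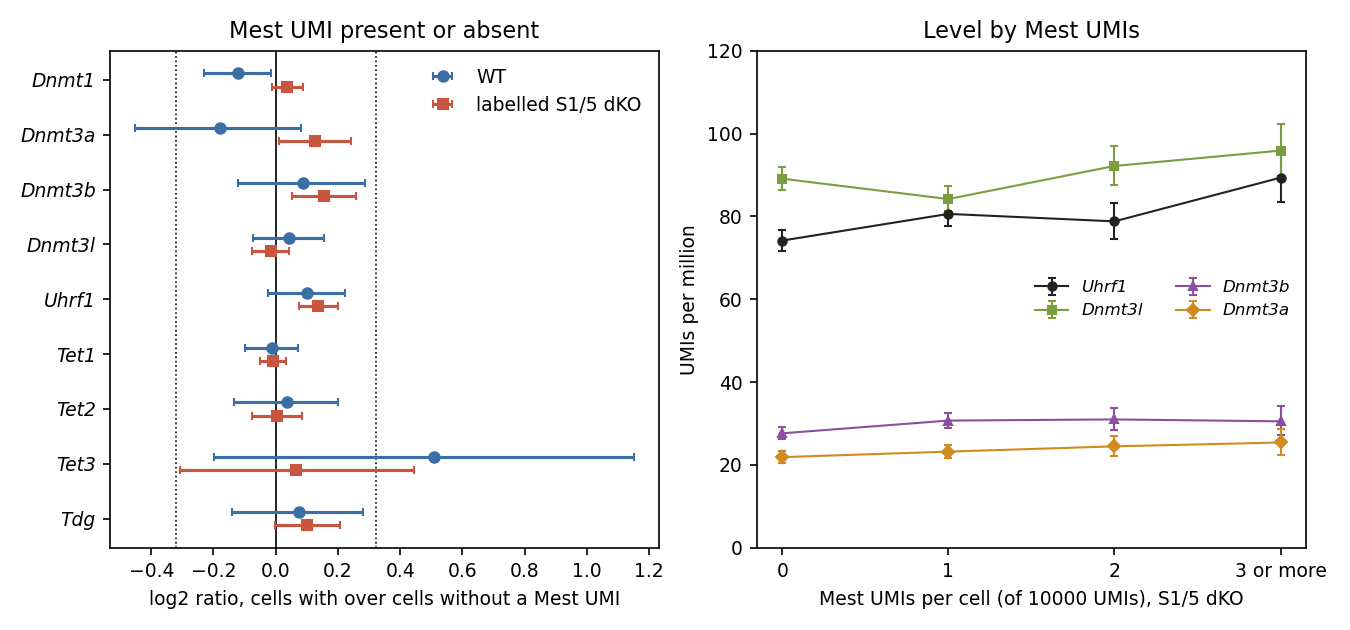
Left, log2 ratio of CPM in cells with over cells without a *Mest* UMI at 10000 UMIs per cell, in WT (circles) and in cells labelled S1/5 dKO (squares), with the threshold of 0.32 as dotted lines. Right, level of 4 of the genes in cells labelled S1/5 dKO by *Mest* UMIs; bars are 95% counting intervals. *Uhrf1* goes from 74.2 at 0 to 89.4 at 3 or more.

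Pearson r across single cells was computed on thinned cells, which share library, depth and cell cycle, and is given as a description. With *Mest*, r lay between −0.03 and 0.04 over 2193 WT cells and between −0.01 and 0.06 over 2843 cells labelled S1/5 dKO. Among the 36 pairs of the 9 genes, r lay between −0.05 and 0.10 in WT and between −0.03 and 0.16 in the other library, and *Tet1* with *Tet2* was the highest in both (0.10 and 0.16). *Dnmt1* with *Uhrf1*, the pair that acts together in maintenance, had 0.02 and 0.04. Values this low in sparse counts are no finding.

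The genes most like each member in WT cells were, for *Tet1*, *Hnrnpu* (r of 0.31 in WT and 0.27 in the other library), *Ncl* (0.25 and 0.24) and *L1td1* (0.23 and 0.23), which encode RNA-binding proteins. For *Dnmt1* they were *Malat1*, a nuclear long noncoding RNA (0.22 and 0.21), *Hnrnpa3* (0.19 and 0.18) and *Ncl* (0.18 and 0.18), and for *Tet2* *Smarca5* (0.15 and 0.13), *Tbx3*, a transcription factor of naive pluripotency (0.13 and 0.17), and *Fgf4* (0.13 and 0.12). For *Dnmt3l* they were *Folr1*, a folate receptor (0.12 and 0.12), *Peg10*, an imprinted gene (0.10 and 0.11), and *Kdm2b* (0.09 and 0.01), and for *Uhrf1* *Ccne1*, the cyclin of S-phase entry (0.11 and 0.11), *Hspa4* and *Cdv3*. *Folr1* ranked first for *Dnmt3l* among 4613 genes in both libraries. *Set*, a histone chaperone, ranked first for *Dnmt3b* in both (0.12 and 0.14), and for *Dnmt3a* the first in WT was *Utf1*, a pluripotency factor (0.11 and 0.07). The r values of the genes closest to *Tdg* and *Tet3* were 0.09 or lower in WT and 0.05 or lower in the other library.

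Against markers of pluripotent state, the median r of *Tet2* with 8 naive genes was 0.09 in WT and 0.10 in the other library, the highest for *Tbx3*. The 95th percentile of its r over 4613 genes, not matched for level, was 0.07 and 0.08. The r of *Tet2* with single naive genes ran from 0.01 to 0.13 in WT and from 0.02 to 0.17 in the other library. Some of them thus lay below that percentile. The medians of *Tet1* were 0.05 and 0.07, inside the range that held the middle 90% of its r over all these genes, −0.06 to 0.10 in both libraries. Those of *Dnmt3l* were −0.02 and −0.04 and those of *Dnmt3b* −0.02 in both. The formative or primed markers had a summed level of 55.5 and 64.0 CPM against 1656 and 1705 CPM for the naive list. *Dnmt3b* is itself on the formative or primed list and made up 28.5 and 29.4 CPM of these sums. The medians with that list lay between −0.01 and 0.03 for every one of the 9 genes, with *Dnmt3b* not set against itself. *Fgf5*, *Lef1* and *T* had 0.0009, 0.0032 and 0.0027 UMIs per thinned WT cell, so few that a low r says little.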

How the data were processed

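The authors aligned the reads of 2 Chromium 3′ v3 libraries and counted UMIs per gene and barcode, and deposited these counts for all barcodes without normalization. The submitters' processing notes name Cell Ranger 3.0.2 and mm10. Whether introns or antisense reads were counted is not given in the sources used here. Counts were summed over kept cells and divided by their totals (CPM), with exact 95% Poisson, binomial and conditional binomial intervals (SciPy 1.17.1, NumPy 2.4.6, pandas 2.3.3, Python 3.11.15), and edgeR 4.0.16 gave TMM factors as an alternative. With 1 library per condition no test was run. The ratio and correlation steps were tried on simulated counts, and the thinning on WT cells. The counts for the ratio were Poisson draws, so this trial does not cover spread among cells, phases or *Mest* classes. Cells were thinned at random to 10000 UMIs for scoring, detection, *Mest* classes and correlation (natural log of 1 plus UMIs per 10000).

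Phases came from CellCycleScoring of Seurat 5.3.0 on R 4.3.3, with control genes drawn from genes detected in at least 3 cells. The scoring was first run with all genes, and this limit was set after those phase shares had been seen. *Uhrf1*, *Hells*, *Cdca7*, *Pcna* and *Ung* were left out of the lists. No doublet caller was run, and cells over 2 times the median UMIs (135 WT, 140 others) were left out in an alternative.

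The 9 genes and all lists were chosen with earlier results of these data known. Named by rule are the 9 genes, *Mest*, *Smad1*, *Smad5*, *Id1*, *Dnmt3c*, list genes past a log2 ratio of 0.32 in size, and the 3 genes of highest r with each member in WT among genes with a mean of at least 0.2 UMIs per thinned cell. *Hells*, *Pclaf*, *Fgf5*, *Lef1* and *T* were named after their values were seen. Alternatives were other limits on genes and mitochondrial UMIs, scalings, thinning, gene lists and minimums.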

Additional observations from a re-analysis of the deposited data

How the results depend on the processing

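Under 10 other cell limits, scalings and phase subsets, 0 of the 9 genes passed the threshold between the libraries in each. The share of all genes past it is not given for those 10. With the main cells and scaling this share was 15.4% with a minimum of 50 UMIs, 5.01% with 1000 UMIs and 2.58% at 1.5-fold. At 1.5-fold the partner list had 1 gene past it in place of 4. Small ratios changed sign: *Uhrf1* went from 0.05 to −0.03 when cells were thinned to 10000 UMIs, and *Dnmt1* to −0.06 in G1 cells. The counts by phase depended on the scoring. For the other settings of phase and *Mest* below, the share of all genes past the threshold is not given. Those counts are thus not read as results about the 9 genes. In WT, 1 gene was past the threshold in S over G1 with thinning to 5000 UMIs, where *Dnmt3a* reversed to −0.011, and 1 in G2/M over G1 without thinning or without cells of high UMIs. In cells labelled S1/5 dKO, 6 were past it in S over G1 with the full lists, and 0 in G2/M over G1 with thinning to 5000 UMIs or with all genes in the scoring. The last setting, added after seeing the data, put 52.7% and 48.4% of cells in G1 in place of 22.9% and 20.8%, so no phase share is read as a result. *Uhrf1* in S over G1 lay between 0.30 and 0.63 in WT and between 0.36 and 0.68 in the other library, and *Tet2* between 0.34 and 0.48 and between 0.40 and 0.71. The 0.63 came from the full lists, which hold *Uhrf1* itself, so that value is partly set by the scoring. The highest WT value of *Uhrf1* under the other settings was 0.58, without thinning. Between cells with and without *Mest*, the WT count was 0 with *Mest* taken from all UMIs, without cells of high UMIs, or in S cells, and 2 in G1 cells (*Uhrf1* and *Tet2*). In the other library it was 2 with *Mest* taken from all UMIs (*Dnmt3b* at 0.42 and *Tet3* at 0.71), a setting in which cell depths were not made equal. The cause of these changes was not tested. No paired analysis was possible because each condition has 1 library, so leaving out a replicate could not be done either, and counting error is all the intervals hold. *Tet3*, at 213 and 250 UMIs, is limited by depth in every comparison.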

Other observations

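The genes of S-phase DNA synthesis and repair that were left out of the phase scoring beside *Uhrf1* were also higher in S than in G1. *Ung*, a uracil glycosylase of base excision repair, was 63.3, 90.2 and 56.4 CPM in G1, S and G2/M cells of WT and 72.9, 108 and 63.9 CPM in cells labelled S1/5 dKO, log2 ratios of S over G1 of 0.51 (0.42 to 0.61) and 0.57 (0.48 to 0.66). *Hells*, the chromatin remodeler that supports methylation, had 0.28 and 0.34, *Cdca7*, its partner, 0.30 and 0.33, and *Pcna*, the replication clamp, 0.31 and 0.37. *Cdca7* stayed high in G2/M (0.26 and 0.25 over G1), whereas *Pcna* was at −0.11 and −0.13.

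Cells with at least 10 UMIs of the markers of the 2-cell-like state were rare, 3 in WT and 5 in the other library, with 121257 and 80174 UMIs in all. *Dnmt1* had 11 and 6 UMIs and *Uhrf1* 6 and 6 UMIs in them, too few to set beside the other cells. The 2 genes listed as markers of ER stress, *Derl3* and *Nupr1*, summed to 14.6 and 15.7 CPM.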
